A study of Mus musculus with 16 samples.

Results

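The nuclei described here were 1965 single nuclei from mouse hippocampus that carried a set of transcripts marking the subiculum, the output region of the hippocampus. A nucleus was selected when at least 5 of the 8 genes *Fn1*, *Ndst4*, *Stac*, *Gm6260*, *Gm42705*, *Gm42707*, *Pde11a* and *Rab38* had a UMI (a unique molecular identifier, that is, a counted RNA molecule). It also needed 1000 to 7000 detected genes, at most 5% of UMIs from mitochondrial genes, and no UMI from *Prox1*, *Gad1*, *Gad2*, *Mog*, *Pdgfra* or *Csf1r*. Of 155084 deposited barcodes, 129802 lay within the limits on genes and mitochondrial UMIs, and 2353 of these held 5 or more of the markers. The 6 excluded genes removed 388 of them, most often *Prox1*, a granule cell gene found in 147, and *Mog*, a myelin gene found in 112.

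The study injected male mice intraperitoneally with vehicle or with DMXAA, a small molecule that activates mouse STING, and profiled hippocampal nuclei after the last injection. The 16 libraries formed 4 groups of 4. Wild-type (WT) mice carried the genotype label C57BL/6 and were 2 months and 23 days old, and *Ifnar1*-/- (KO) mice, which lack a subunit of the type I interferon receptor, were 3 months and 3 days old. Both genotypes received both injections, so genotype, age and any handling of the separate cohorts cannot be told apart, and the labels do not say which part of *Ifnar1* was removed.

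Pyramidal neurons of the subiculum receive much of the output of CA1 and send it to cortex, thalamus and hypothalamus, and many of them fire in bursts. In the pathway that DMXAA enters, STING induces type I interferons, which bind the IFNAR1 and IFNAR2 receptor pair. The receptor activates the kinases JAK1 and TYK2, and transcription factors downstream of them bind interferon-stimulated response elements in the promoters of interferon-stimulated genes.

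The WT vehicle libraries held 106, 152, 118 and 151 selected nuclei, and the WT DMXAA libraries 95, 148, 124 and 158. The KO vehicle libraries held 104, 100, 135 and 120, and the KO DMXAA libraries 72, 116, 144 and 122. The smallest sum over the selected nuclei of a library was 1387578 UMIs and the largest was 3164431. The median selected nucleus had 17727 UMIs and 4266 genes, against 7483 UMIs and 2780 genes for all nuclei within the limits. Requiring 5 detected markers favours deeply sampled nuclei. Of all barcode sequences, 3033 of 152013 occurred in more than 1 library, and 1 selected barcode was selected in more than 1 library. No doublet caller was run. Nuclei were summed per library for every test, since nuclei of a library are not replicates.

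Library 3 of the WT DMXAA group stood apart from the other WT libraries. For 4099 genes that differed between KO and WT vehicle mice (described below), this library lay nearer to the KO vehicle mean than to the WT vehicle mean in 81.4% of them. The other WT DMXAA libraries did so in 6.03, 11.4 and 6.86%, and the KO DMXAA libraries in 59.2 to 86.7%. Library 3 nevertheless carried more *Eif2ak2*, an interferon-stimulated gene, than any vehicle library. Its sum of 116 interferon-stimulated genes (described below) was 342 normalised CPM, against 241 to 266 in the KO libraries. Its *Ifi27*, another such gene, lay within the range of the WT vehicle libraries. The labels do not say whether library 3 was handled with the KO libraries. Its *Ifnar1* level, 10.8 normalised CPM, was the lowest of the WT libraries and within the range of the KO DMXAA libraries. Whether its label is right cannot be told from these data, so each WT DMXAA value with n = 4 carries this doubt. All libraries were in the same fit, with a shared estimate of the spread. Library 3 therefore also bears on the counts of genes called in contrasts that do not hold the WT DMXAA group. Values without it stand beside the main results with DMXAA, and where none is given the value includes it.

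The marker genes were far above their level in other excitatory nuclei, as the selection requires. Nuclei of the CA1 set and of the other excitatory set could hold at most 2 of the 8 markers. These differences are therefore fixed in part by the choice of both sides. In plain CPM (UMIs of a gene per 1000000 UMIs of the same nuclei), the median library had 231 of *Fn1*, the gene of fibronectin, in the selected nuclei against 11.1 in 9371 CA1 nuclei. *Ndst4*, a heparan sulfate N-deacetylase/sulfotransferase, had 1020 CPM against 196 in CA1 nuclei. *Stac* had 325 against 75.5 CPM, and *Pde11a*, a cyclic nucleotide phosphodiesterase, 276 against 89.4 CPM. The noncoding transcripts *Gm6260*, *Gm42705* and *Gm42707*, which neighbour each other on chromosome 3, had 174, 124 and 80.5 CPM against at most 1.56 CPM. *Rab38* had 61.5 CPM against 1.91 CPM.

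Genes outside the rule were examined as a description of the same nuclei, without a test. The transcription factor *Etv1* had 370 CPM in the selected nuclei and 111 CPM in CA1 nuclei, *Kctd8*, an auxiliary subunit of GABA-B receptors, 422 against 39.3 CPM, and *Gfra1*, a receptor of glial cell line-derived neurotrophic factor, 195 against 26.1 CPM. *Fezf2* and *Bcl11b*, transcription factors of subcerebral projection neurons, had 44.8 against 6.57 CPM and 474 against 243 CPM. The vesicular glutamate transporter *Slc17a7* had 102 CPM and was detected in 83.9% of the selected nuclei.

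Most, but not all, listed genes of CA1 and of upper cortical layers were lower than in CA1 nuclei. The CA1 nuclei were chosen for holding at least 3 of 7 CA1 genes, so their levels of that list are fixed in part by the choice. Of the list, *Fibcd1* and *Wfs1* had 2.92 and 3.55 CPM in the selected nuclei against 56.4 and 47.4 CPM in CA1 nuclei, and *Spink8* and *Lefty1* had 7.21 and 0 CPM against 16.6 and 4.50 CPM. *Mpped1* (225 against 196 CPM) and *Pou3f1* (29.5 against 26.5 CPM) were not lower, and *Man1a* had 265 against 536 CPM. *Zbtb20*, a transcription factor of hippocampal pyramidal neurons, had 135 against 1662 CPM. *Cux2*, a gene of upper cortical layers, had 5.52 against 71.4 CPM, and *Rasgrf2*, *Otof* and *Stard8* of the same list had 12.4, 1.23 and 0.180 against 34.1, 6.69 and 0.979 CPM, while *Lamp5* had 10.9 against 10.5 CPM. *Mef2c*, a transcription factor that acts on synapse number and activity-dependent transcription, had 60.1 CPM in the selected nuclei, 287 CPM in CA1 nuclei and 343 CPM in 35619 other excitatory nuclei. Besides *Cux2*, the CA1 nuclei had 722 CPM of *Tshz2*, 186 of *Vwc2l* and 484 of *Hs3st4*, all genes listed for cortical neurons. In the selected nuclei these 3 had 1439, 23.1 and 475 CPM. Whether the CA1 nuclei include nuclei of cortex was not tested, so their name is only that of their rule.

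**Figure D1:**
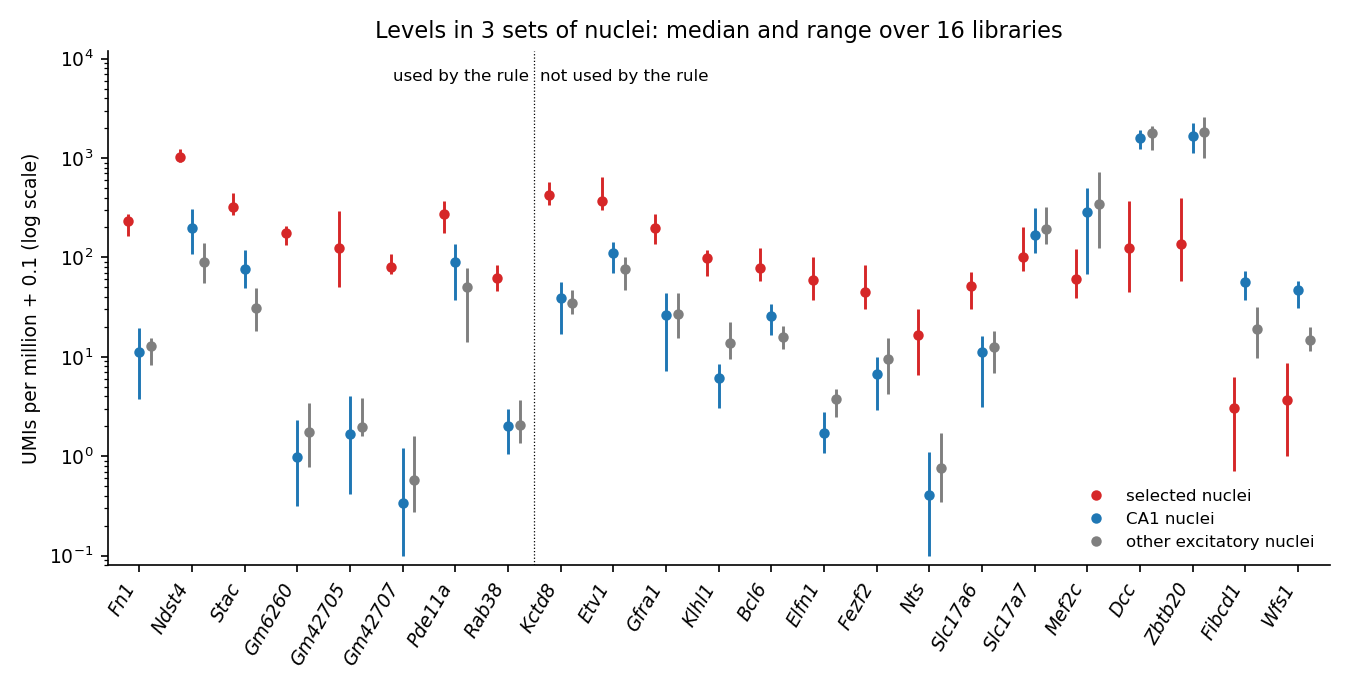
Plain CPM (log axis) of the 8 selection genes and of further genes in the selected nuclei, in CA1 nuclei and in other excitatory nuclei, with points for the median of 16 libraries and lines from the lowest to the highest library. The selection genes are higher in the selected nuclei by construction, and *Fibcd1*, *Zbtb20* and *Mef2c* are lower than in CA1 nuclei. The CA1 and other excitatory sets share nuclei.

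The label of subiculum projection neurons was only partly borne out by other genes named for that region. *Dlk1*, *Cbln1* and *Gpc3* had median levels of 0.762, 0 and 0.662 CPM, against 0.585, 0.474 and 9.04 CPM in CA1 nuclei. *Lxn* was low but above its CA1 level (7.37 against 2.32 CPM), and *Ntng2* had 78.3 against 64.7 CPM. *Nts*, the gene of neurotensin, had 16.6 CPM against 0.305 CPM in CA1 nuclei, and *Slc17a6*, a second vesicular glutamate transporter, 51.2 against 11.2 CPM. These nuclei are therefore called by their rule, the selected nuclei, and no finer cell type is given. Of the selected nuclei, 44.9% had a UMI of 3 or more genes from a list of 7 CA1 genes.

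The threshold of the rule fell within a gradual change of depth and of *Fn1*. Nuclei with 5 markers numbered 625, had a median of 15620 UMIs and held *Fn1* in 39.2%. Just outside, 703 nuclei with 4 markers had a median of 16169 UMIs and held *Fn1* in 20.5%. The 277 nuclei with all 8 markers had a median of 20937 UMIs.

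The selected nuclei were not all alike. *Tshz2*, a zinc finger transcription factor, and *Hs3st4*, a heparan sulfate sulfotransferase, opposed each other across nuclei. Pearson's r of their log levels over the 1965 nuclei was -0.69, and within single libraries it lay between -0.86 and -0.58. These nuclei share depth within a library, so r is a description. *Tshz2* UMIs exceeded *Hs3st4* UMIs in 1283 nuclei (65.3%), called the *Tshz2* kind here, and the other 682 (34.7%) are called the *Hs3st4* kind. The counts were within 3 UMIs of each other in 119 nuclei, and 7 had neither gene. Both genes were at 1 or more per 10000 UMIs in 441 nuclei (22.4%). The share with more *Tshz2* than *Hs3st4* UMIs rose with the markers held, from 47.7% at 5 markers to 95.3% at 8. Among the nuclei with 4 markers, outside the rule, it was 33.7%. The kinds therefore changed gradually across the threshold of the rule.

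*Fn1* was detected in 85.2% of the *Tshz2* kind and in 20.1% of the *Hs3st4* kind, so the best-known gene of the rule belonged mainly to the first. Summed over all libraries, *Tshz2* itself had 2219 CPM in the first kind and 165 CPM in the second, and *Hs3st4* had 108 and 1200 CPM. The genes below were picked for their contrast between the kinds after their values were seen, and no test was made of them.

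In the *Tshz2* kind, *Htr1f*, a serotonin receptor, had 480 CPM against 41.2 CPM in the *Hs3st4* kind, and *Rxfp1*, the relaxin receptor, had 238 against 18.1 CPM. *Unc5c*, a netrin receptor, had 2209 against 346 CPM, and *Syt2*, a fast calcium sensor of transmitter release, 50.3 against 2.31 CPM. *Nts* (27.1 against 1.84 CPM), *Slc17a6* (74.7 against 15.5 CPM) and *Stac* (458 against 142 CPM) went with them. Each of these genes was higher in the *Tshz2* kind in 16 of 16 libraries.

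In the *Hs3st4* kind, *Foxp2*, a transcription factor of deep-layer corticofugal neurons, had 33.8 CPM against 2.93 CPM in the *Tshz2* kind. *Tle4* of the same deep-layer list had 46.4 against 54.0 CPM and was higher in the *Tshz2* kind in 10 of 16 libraries, and *Syt6* had 0.593 against 0.387 CPM. *Zfp804b* had 364 against 20.1 CPM, and *Robo1*, a receptor of Slit guidance cues, 2115 against 235 CPM. *Kirrel3*, a synaptic adhesion molecule, had 3407 against 558 CPM, and *Htr2c*, another serotonin receptor, 170 against 19.5 CPM. *Nrg1* (1045 against 207 CPM) and *Trpm3* (292 against 54.9 CPM) had the same direction, again in 16 of 16 libraries.

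Other genes were at like levels in both kinds. *Gm42707* had 85.7 CPM in the *Tshz2* kind and 82.4 CPM in the *Hs3st4* kind. *Pde11a* had 290 and 279 CPM, *Fezf2* 47.3 and 48.2 CPM, and *Mef2c* 63.7 and 65.0 CPM.

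**Figure D2:**
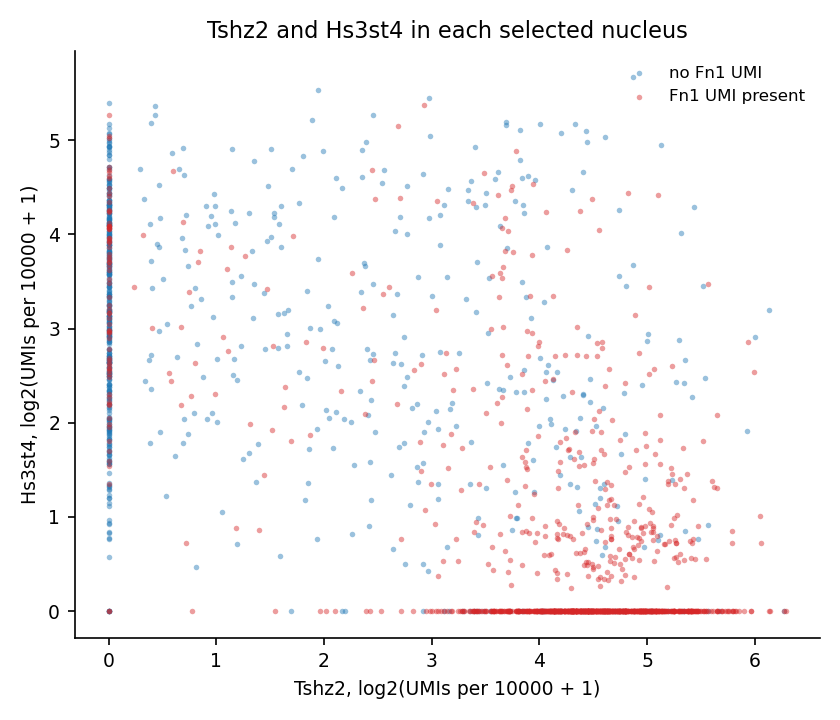
*Hs3st4* (y) against *Tshz2* (x) in each of the 1965 selected nuclei, as log2 of UMIs per 10000 plus 1, with nuclei that hold an *Fn1* UMI in red and the others in blue. Most nuclei are high in one gene and low in the other, and *Fn1* goes with *Tshz2*.

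Ranked by the ratio of variance to the Poisson value, which favours abundant genes, the first of 8008 genes were *Malat1*, *Tenm2*, *Kcnip4*, *Lrp1b*, *Kirrel3*, *Lsamp*, *Tenm3*, *Dpp10*, *Pcdh9* and *Zfp804b*. Variance was 134 times the Poisson value for *Malat1*, a nuclear noncoding RNA, and 80.1 times for *Tenm2*, a teneurin adhesion protein. Ranked by excess squared coefficient of variation instead, the first genes were *Gm32647*, *Fstl4*, *Il1rapl2*, *Slc1a3* and *Pdzrn3*, and the first 10 of the rankings shared none. Of the first list, *Kirrel3*, *Lrp1b* and *Zfp804b* were higher in the *Hs3st4* kind in 16 of 16 libraries, and *Tenm3* was higher in the *Tshz2* kind in 16 of 16 (2263 against 800 CPM).

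Neither the number of selected nuclei nor the balance of the kinds differed with DMXAA beyond the spread between libraries. The selected nuclei accounted for 1.48% ± 0.297 (SD, n = 4) of nuclei with vehicle and 1.53% ± 0.371 with DMXAA in WT mice (exact two-sided permutation test, p = 0.83). In KO mice they made up 1.58% ± 0.0491 with vehicle and 1.49% ± 0.319 with DMXAA (exact permutation p = 0.943). As a share of excitatory nuclei, the means were 3.73 and 4.18% in WT mice and 4.89 and 4.47% in KO mice (exact permutation p = 0.714 and p = 0.6). With 4 libraries against 4 the smallest p this test can give is 0.0286.

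The *Hs3st4* kind took 29.8% ± 6.32 (SD, n = 4) of the selected nuclei in WT vehicle libraries, 33.4% ± 7.35 in WT DMXAA libraries, 37.2% ± 2.85 in KO vehicle libraries and 35.0% ± 11.8 in KO DMXAA libraries. The exact permutation p was 0.514 for DMXAA in WT mice, 0.886 for DMXAA in KO mice and 0.0571 for KO against WT vehicle mice. Library 1 of the KO DMXAA group was lowest of all at 18.1%.

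The effect of DMXAA on transcription was tested with edgeR's quasi-likelihood test on summed UMIs. A gene was called when its Benjamini-Hochberg adjusted p was under 0.05 and its log2 fold change exceeded 0.1 in size. Per-library levels below are normalised CPM (CPM after TMM scaling of the library size), and folds are log2 changes ± SE. Nothing says how the mice of a group relate to each other beyond being separate samples, so p-values measure the spread between these samples.

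*Ifnar1*, the targeted gene, had 15.7, 12.9, 15.7 and 17.6 normalised CPM in WT vehicle libraries and 9.89, 11.8, 7.14 and 3.56 in KO vehicle libraries. All KO vehicle libraries were below all WT vehicle libraries (log2 change -0.94 ± 0.25, adjusted p = 0.00823, edgeR). With DMXAA the levels were 13.8, 16.9, 10.8 and 14.3 in WT libraries and 10.5, 8.78, 11.3 and 11.6 in KO libraries. Those groups overlapped through WT library 3 (-0.41 ± 0.25, adjusted p = 0.279, edgeR), and without that library the difference was -0.50 ± 0.25 (adjusted p = 0.121, edgeR). Reads were counted over the whole gene, so the UMIs that remained in KO mice do not check the deletion itself.

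In WT mice, 3 of 11692 tested genes (0.0257%) were called with DMXAA, and each was an interferon-stimulated gene that rose. Those described here are *Eif2ak2*, which encodes the double-stranded RNA-activated kinase PKR, and *Ifi27*, which encodes a small interferon-induced membrane protein. At an unadjusted p under 0.05 there were 531 genes.

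*Eif2ak2* (chr17:78852564-78882573, mm10) had 5.23, 2.59, 2.14 and 1.66 normalised CPM with vehicle and 28.8, 12.8, 7.4 and 12.7 with DMXAA in WT mice, without overlap. Its log2 change was 2.45 ± 0.41 (adjusted p = 0.0398, edgeR). In KO mice it had at most 1.98 normalised CPM with vehicle and at most 2.80 with DMXAA (1.08 ± 0.64, adjusted p = 0.834, edgeR).

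*Ifi27* (chr12:103434211-103440239) had 2.90, 6.46, 3.56 and 3.66 normalised CPM with vehicle and 21.0, 19.5, 5.42 and 26.4 with DMXAA in WT mice. DMXAA library 3 lay within the vehicle range. The log2 change was 2.13 ± 0.37 (adjusted p = 0.0398, edgeR). KO libraries had 1.58, 1.47, 2.78 and 3.11 with vehicle and 1.49, 2.63, 2.67 and 2.80 with DMXAA.

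Each of these calls depended on single libraries. Leaving out any 1 of the WT vehicle libraries, or WT DMXAA library 2, left 0 genes called. Without WT DMXAA library 1 or 4, 1 gene was called, neither *Eif2ak2* nor *Ifi27*. Without library 3, which stood apart, 4 genes were called, among them *Ifi27* (log2 change 2.42, adjusted p = 2.69e-05, edgeR), *Eif2ak2* (2.66, adjusted p = 0.00111) and *Ddx60*. With all 16 libraries *Ddx60* did not pass the filter on low counts. With a group of 3 the filter asked for fewer libraries, and *Ddx60* passed through the WT DMXAA group, where it was high. It was also called when any 1 KO library was left out, so its call is not particular to leaving out library 3. Limma called 0 genes and DESeq2 3, with adjusted p = 0.00183 for *Eif2ak2* and 0.00344 for *Ifi27*. With at least 4 or at least 6 markers *Ifi27* was not called (adjusted p = 0.0751 and 0.302, edgeR). After thinning every nucleus to 3000 UMIs, without mixed nuclei (those holding at least 3 genes of 1 other cell class list) and in the *Tshz2* kind alone, neither gene passed the filter on low counts, so the 0 calls of those fits do not bear on them. With nuclei of at most 4000 genes *Eif2ak2* did not pass the filter, and *Ifi27* was tested and not called (log2 change 1.61).

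The transcription factors *Stat2* and *Irf9*, which act together downstream of the receptor, were not called. *Stat2* had 27.9, 23.7, 27.8 and 24.3 normalised CPM with vehicle and 76.8, 33.8, 28.1 and 35.7 with DMXAA in WT mice (0.72 ± 0.23). *Irf9* had 6.39, 9.05, 6.41 and 8.99 with vehicle and 27.0, 12.4, 9.37 and 11 with DMXAA (0.88 ± 0.29). Without library 3 the changes were 0.86 (adjusted p = 0.338, edgeR) and 1.01 (adjusted p = 0.430, edgeR). In both genes the WT DMXAA libraries were all above the vehicle libraries, library 1 stood far above the rest, and library 3 was close to the vehicle range. In plain CPM, without TMM scaling, library 3 fell within the vehicle range for *Irf9* (8.59, vehicle 6.78 to 10.1) and below it for *Stat2* (25.8, vehicle 26.2 to 32.7). *Tapbp*, a chaperone of antigen loading (1.09 ± 0.33), and *Parp9*, a partner of interferon signalling (1.04 ± 0.37), did not overlap either and were not called. In plain CPM *Tapbp* overlapped (lowest DMXAA library 4.97, highest vehicle library 5.03) and *Parp9* did not.

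Most interferon-stimulated genes were too sparse to test, with few UMIs in all selected nuclei of a group together. *Ddx60*, an antiviral helicase, had 0, 0, 0 and 1 UMIs with vehicle and 23, 19, 5 and 19 with DMXAA in WT mice. Per UMI sequenced this was 61.8 times as much (95% counting interval 10.7 to 2478). *Oasl2*, a member of the oligoadenylate synthetase family, had 0 UMIs in the vehicle libraries and 14, 15, 4 and 3 in the DMXAA libraries, which was at least 11.2-fold higher with the vehicle group set to 3 counts in all.

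*Samd9l* went from 0 UMIs to 9, 7, 2 and 6 (at least 7.49-fold higher), *Ifi44* from 0 to 9, 2, 1 and 2 (at least 4.37-fold higher) and *Bst2*, the gene of tetherin, from 0 to 3, 6, 0 and 2 (at least 3.43-fold higher). Summed over the group, *Ifit1* went from 4 to 39 UMIs (9.13 times, 3.29 to 35.2) and *Irf7*, the transcription factor that amplifies interferon production, from 3 to 26 (8.12 times, 2.49 to 41.9). *Xaf1* went from 5 to 36 UMIs and *Lgals3bp* from 5 to 34. These intervals cover counting error only. RNA of other cells free in the droplets was not measured, and its part in these counts was not tested. In KO mice *Oasl2* and *Bst2* had 0 UMIs in all libraries with either injection, and *Ddx60* had 3 with vehicle and 0 with DMXAA.

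Across 7 lists of interferon-stimulated genes, 116 genes were in the files, 17 passed the filter on low counts and 22 had no UMI in the selected nuclei. The mean of WT DMXAA libraries was above that of WT vehicle libraries for 79 of the 92 genes with a UMI in WT mice, and below it for 13. Of all 11692 tested genes, 6293 had an edgeR log2 change above 0 in WT mice. Libraries did not overlap for 13 of the 116 genes (11.2%), all higher, against 1.2% of all tested genes higher and 1.21% lower without overlap. The 116 include genes too sparse for the filter, while the shares of all tested genes cover only genes that passed it. Here and below these shares are of unlike sets, so no conclusion is drawn from setting them side by side. In plain CPM 8 of the 116 (6.90%) did not overlap, all higher, against 0.436% of all tested genes higher and 2.46% lower. Without WT DMXAA library 3, which leaves 3 libraries against 4, 25 (21.6%) did not overlap in normalised CPM and 24 (20.7%) in plain CPM, all higher. Of all tested genes 4.23 and 3.26% were higher without overlap. In KO mice 44 had a higher mean with DMXAA and 36 a lower one, where 5832 of all 11692 tested genes had an edgeR log2 change above 0. Of the 116, 3 (2.59%) were higher without overlap, where 2.88% of all tested genes were higher and 2.53% lower without overlap.

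Summed over the lists, WT vehicle libraries had 252, 230, 232 and 242 normalised CPM and WT DMXAA libraries 614, 384, 342 and 328. KO vehicle libraries had 266, 246, 253 and 241 and KO DMXAA libraries 246, 243, 253 and 254. Every WT DMXAA library was above every other library. With the called genes taken out, the WT sums were 235, 214, 220 and 228 with vehicle and 460, 320, 295 and 269 with DMXAA, which is also without overlap. Neither sum overlapped in plain CPM, where library 3 had 314 and, without the called genes, 270.4 against at most 273 and 259 with vehicle.

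**Figure D3:**
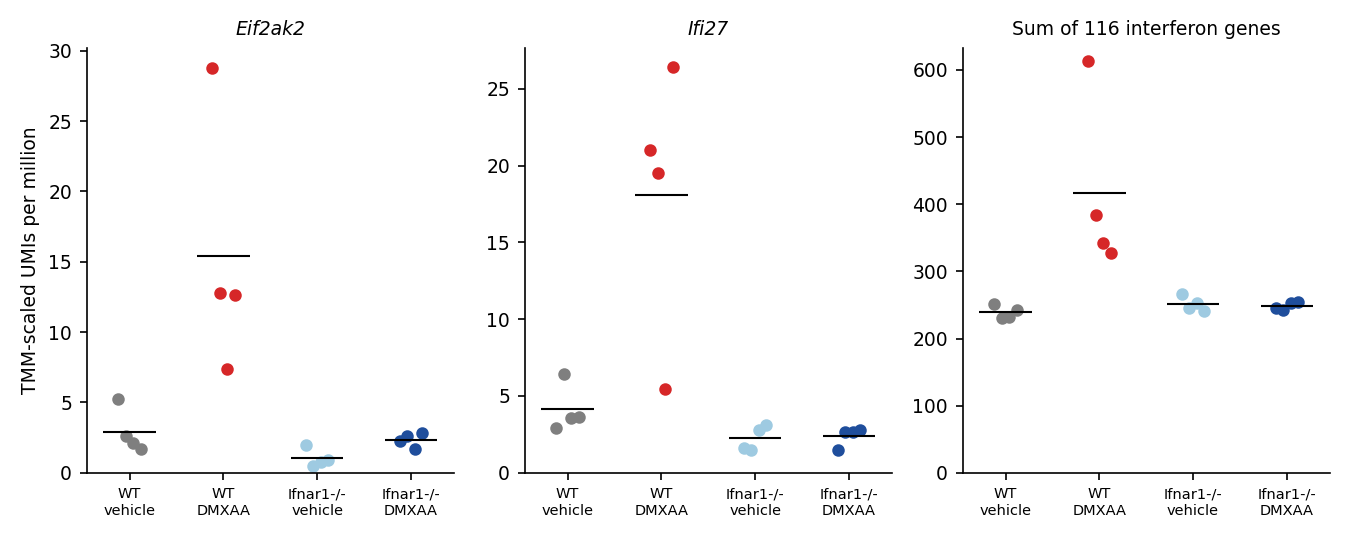
Normalised CPM (linear axes from 0) of *Eif2ak2*, *Ifi27* and the sum of 116 interferon-stimulated genes in the 16 libraries by group, with points for libraries and lines for group means. The *Eif2ak2* values of the WT DMXAA group lie above the other groups, *Ifi27* does so except for library 3, and KO DMXAA libraries lie among the vehicle libraries.

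Several promoters of these genes held a composite interferon-stimulated response element. Both strands of the 250 bases before each gene's start were searched for TTTCNNTTTC or its reverse complement GAAANNGAAA, in RefSeq promoters of build GRCm38.p6. The motif was present for 3.46% of 27025 genes with a promoter, and a match is a description of the letters and not of binding. The promoters shown are of the genes above whose window held it, with the motif in capitals, each read 5′ to 3′ on the strand of its gene.
*Stat2*, chr10:128270261-128270300, plus strand: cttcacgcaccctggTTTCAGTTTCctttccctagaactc
*Ddx60*, chr8:61928019-61928086, plus strand: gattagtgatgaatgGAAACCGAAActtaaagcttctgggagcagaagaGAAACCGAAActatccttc
*Ifit1*, chr19:34640770-34640828, plus strand: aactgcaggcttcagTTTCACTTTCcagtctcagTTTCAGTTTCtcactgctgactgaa
*Bst2*, chr8:71537572-71537617, minus strand: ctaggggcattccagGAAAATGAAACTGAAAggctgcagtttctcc

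*Ddx60* and *Ifit1* each held the motif at separate places, in *Ddx60* starting 53 and 19 bases before the start. *Bst2* held overlapping matches, 130 and 124 bases before its start. The windows of *Eif2ak2*, *Irf9*, *Irf7*, *Oasl2*, *Xaf1*, *Lgals3bp*, *Tapbp*, *Samd9l* and *Ifi44* held no match to these letters. For *Stat2*, *Bst2* and *Oasl2* the bases that follow the window were not found in a GENCODE transcript. Their windows and distances hold only for the RefSeq start. *Ifi27* and *Parp9* are named only.

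In KO mice, 0 of 11692 genes (0%) were called with DMXAA by edgeR, against 675 at an unadjusted p under 0.05. In the fit without WT DMXAA library 3 there were also 0 called, and 1269 of 11972 genes at an unadjusted p under 0.05. The only DESeq2 call was *Cdh7*, a cadherin (log2 change -0.73 ± 0.14 and adjusted p = 0.338 by edgeR). With limma there was none. The next genes by p were *D130009I18Rik* (-1.68), *Ttc9c* (1.22), *Cdh9* (-1.34) and *Lrrc45* (0.59), none of them called.

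The difference of the DMXAA effect between genotypes was tested as an interaction, and 0 genes (0%) were called by edgeR, with 712 at an unadjusted p under 0.05. For *Ifi27* the WT change exceeded the KO change by 1.98 on the log2 scale (adjusted p = 0.804, edgeR), and for *Eif2ak2* by 1.37. DESeq2 called *Nell1* (1.92 ± 0.39, adjusted p = 0.27 by edgeR) and *Pdzrn4* (1.20).

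Between the DMXAA groups themselves, KO nuclei had less of these genes than WT nuclei. This contrast includes whatever difference was present with vehicle. The log2 change was -2.67 for *Eif2ak2* (adjusted p = 0.0041, edgeR), -2.85 for *Ifi27* (adjusted p = 0.0041) and -1.08 for *Stat2* (adjusted p = 0.0203). With library 3 of the WT group left out these were -2.87, -3.14 and -1.20, each called. Those fits called 663 of 11692 genes and, without library 3, 4099 of 11972. In plain CPM the genes were already lower in KO with vehicle, at 0.421 to 1.81 against 1.87 to 5.55 for *Eif2ak2*. *Ifi27* had 1.26 to 2.79 against 3.08 to 7.16, and *Stat2* 14.5 to 18.2 against 26.2 to 32.7. None was called between the vehicle groups, and in normalised CPM *Eif2ak2* and *Ifi27* overlapped there.

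Genes upstream in the pathway were sparse or not called. *Tmem173*, the gene of STING, had 2 UMIs in all 1965 nuclei, with 1 in WT vehicle and 1 in KO vehicle libraries. *Jak1*, *Tyk2* and *Ifnar2* were not called with DMXAA in either genotype. Marker genes of microglia, the cells that carry most STING in brain, gave summed levels of 45.7 to 76.8 plain CPM with vehicle and 20.3 to 102 with DMXAA in WT mice over 8 genes, 5 of which were under 2 CPM, and their part in the result was not tested.

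*Mef2c* was not called with DMXAA. It had 73.2, 55.6, 69.1 and 92.9 normalised CPM with vehicle and 110, 89.7, 46.8 and 45.3 with DMXAA in WT mice (-0.02 ± 0.25). In KO libraries it had 42.7, 45.7, 63.9 and 74.7 with vehicle and 67.2, 66.3, 45.0 and 62.4 with DMXAA (0.07 ± 0.25). All groups overlapped. The WT value was -0.80 with at least 4 markers and turned sign with at least 6 markers or at most 4000 genes, called in none of these. In CA1 nuclei it was -0.43 ± 0.35 and in other excitatory nuclei -0.69 ± 0.42, neither called. The change in the selected nuclei differed from that in CA1 nuclei by 0.38 (95% interval -0.32 to 1.08). Among 222 tested MEF2C target genes, taken from the study's *Cgas* cohort, 0 were called by edgeR in either genotype, with 26 in WT and 20 in KO mice at an unadjusted p under 0.05. Over all 11692 tested genes these counts were 531 and 675. Leaving out WT DMXAA library 3, the WT counts were 18 of the targets and 898 of 11972 genes. The median log2 change of the targets was 0.13 in WT and -0.14 in KO mice, against 0.02 and -0.00 over all genes. Without WT DMXAA library 3 the WT median was -0.02, against 0.01 over all genes, so its sign rested on that library. *Mef2c* itself was then at 0.12.

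No gene of the lists for glutamate receptors, GABA receptors, burst-firing channels, synaptic adhesion, immediate early genes, heat shock or the circadian clock was called with DMXAA in WT or KO mice by edgeR. Since only 3 of 11692 genes were called in WT mice and 0 in KO mice, most lists of this size would hold none. In WT mice the median log2 change was 0.19 over 34 glutamate receptor genes, 0.12 over 55 adhesion genes and 0.09 over 35 channel genes, and without library 3 it was 0.02, -0.00 and -0.02. Over all tested genes it was 0.02, and 0.01 without library 3. At an unadjusted p under 0.05 there were 4, 4 and 3 genes of these lists, against 531 of all 11692 tested genes. *Galnt9*, a glycosyltransferase, had the lowest p among uncalled genes in WT mice. It had 183, 193, 174 and 235 normalised CPM with vehicle and 253, 294, 367 and 276 with DMXAA (0.60 ± 0.14, adjusted p = 0.736, edgeR), with library 3 highest. Without library 3 the change was 0.49 (adjusted p = 0.338, edgeR).

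The response was set beside that of other neurons of the same libraries. In CA1 nuclei 16 of 15147 genes were called in WT mice with DMXAA, and in other excitatory nuclei 25 of 18466 genes, all higher. When WT DMXAA library 3 was left out these were 28 higher and 2 lower in CA1 nuclei and 34 higher and 7 lower in other excitatory nuclei. Those sums hold more nuclei and more UMIs, which bears on how many genes can be called. CA1 nuclei with a *Slc17a7* UMI were also among the other excitatory nuclei, so the results of these sets are not independent.

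In a model with both kinds of sum and a block for each library, 0 of 15094 genes (0%) had a different DMXAA effect in the selected nuclei than in CA1 nuclei by edgeR, with 750 at an unadjusted p under 0.05. DESeq2 called *Cdh4*, *Lin7a* and *Pdzrn4*. The log2 change of *Eif2ak2* differed by -0.85 from that in CA1 nuclei (95% interval -1.70 to 0.01). *Ifi27* rose more in the selected nuclei by 0.82 (0.27 to 1.38, unadjusted p = 0.0075, adjusted p = 0.889, edgeR).

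**Figure D4:**
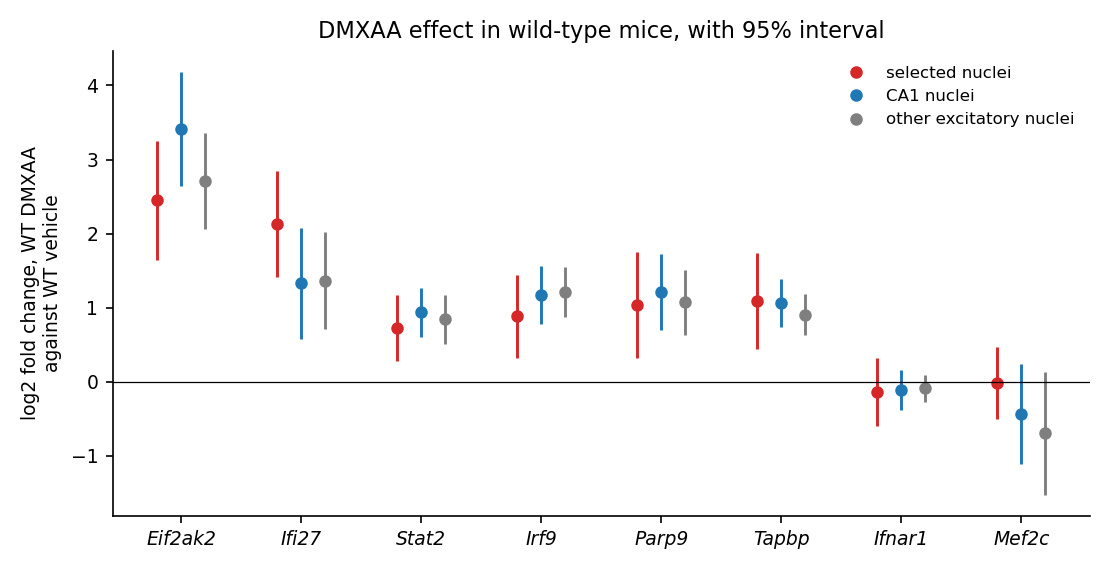
Log2 change with DMXAA in WT mice, with 95% intervals, of 6 interferon-stimulated genes, *Ifnar1* and *Mef2c* in the selected nuclei, CA1 nuclei and other excitatory nuclei. *Eif2ak2* is lower and *Ifi27* higher in the selected nuclei than in CA1 nuclei, and neither difference was called. The CA1 and other excitatory sets share nuclei.

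A far larger contrast was that between vehicle-treated KO and WT mice. Of 11692 genes, 4099 (35.1%) were called, 2006 higher in KO mice (17.2%) and 2093 lower (17.9%). In the fit without WT DMXAA library 3, 5011 of 11972 genes (41.9%) were called between the vehicle groups. Libraries of the groups did not overlap for 18.1% of tested genes on the higher side and 18.2% on the lower side. In plain CPM these shares were 7.36 and 35.3%, and the median log2 difference of all tested genes was -0.35 against -0.05 in normalised CPM, so directions here are relative to TMM scaling. The KO libraries were also deeper per nucleus, with a median of 20989 ± 3507 UMIs (SD, n = 4) against 15357 ± 2933 (exact permutation p = 0.0857), and had a lower share of mitochondrial UMIs, 0.0583% against 0.139% (exact permutation p = 0.0286). TMM factors were 0.862 to 0.920 in KO vehicle and 1.07 to 1.19 in WT vehicle libraries. The part of these differences, of age or of cohort in the gene changes was not tested. After thinning every nucleus to 3000 UMIs 1434 of 5685 tested genes were called (25.2%), with nuclei of at most 4000 genes 1722 of 8041 (21.4%), and without nuclei holding genes of another class 2068 of 7873 (26.3%).

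The genes higher in KO mice were long and those lower were short. The median length was 134 kb for genes called higher, 10.7 kb for genes called lower and 30.4 kb for all tested genes. Of 2148 genes up to 10 kb long, 1.35% were higher and 46.3% lower. Of 530 genes over 300 kb, 78.9% were higher and 0.566% lower.

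**Figure D5:**
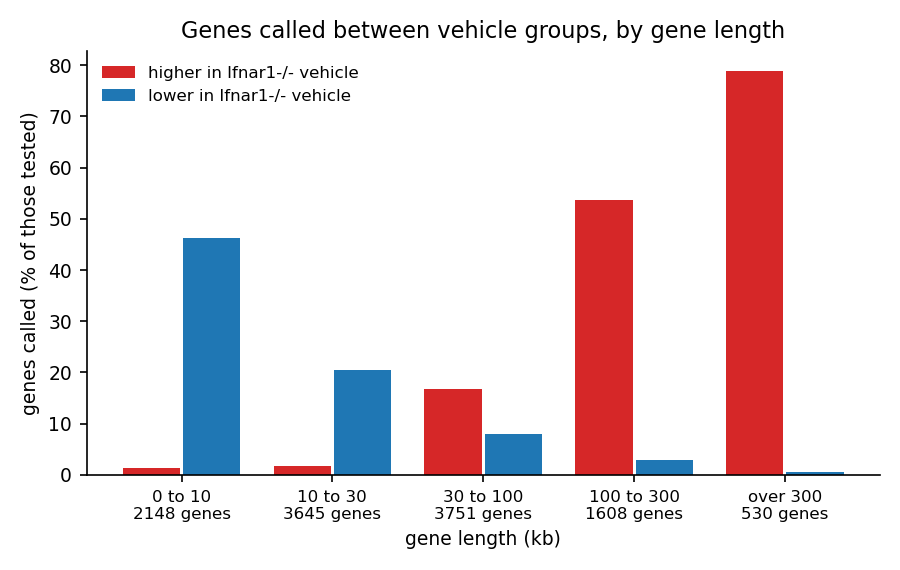
Share of tested genes called higher or lower in KO than in WT vehicle libraries, by gene length bin in kb. The share called higher rises from 1.35% in the shortest bin to 78.9% in the longest, while the share called lower falls from 46.3 to 0.566%.

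The neuronal gene lists were read against genes of like length, by the share called among all tested genes in the same length bins, weighted as in the list. The median length was 232 kb for glutamate receptor, 392 kb for adhesion, 162 kb for channel and 6.96 kb for immediate early genes. Of 34 tested glutamate receptor genes, 23 rose and 1 fell in KO mice, of 55 synaptic adhesion and guidance genes 39 rose and 2 fell, and of 35 channel genes tied to burst firing 21 rose and 0 fell. The shares that rose were 67.6, 70.9 and 60% (all genes of like length, 49.9, 60.2 and 47.8%). GABA receptor genes rose in 6 and fell in 1 of 15, or 40% higher (like length, 45.3%). These shares were not tested against each other.

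*Grin2a*, an NMDA receptor subunit, had 2149, 1945, 1691 and 1660.5 normalised CPM in WT vehicle libraries and 3079.9, 3785, 3403 and 3649 in KO vehicle libraries, without overlap (0.90 ± 0.15, adjusted p = 0.000991, edgeR). *Gria1*, an AMPA receptor subunit, rose by 0.90 ± 0.18, and *Cnih3*, an AMPA receptor auxiliary protein, by 0.83. *Shisa9*, another AMPA receptor auxiliary protein, had 118, 115, 116 and 133 in WT and 412, 454, 393 and 347 in KO vehicle libraries (1.73 ± 0.27, adjusted p = 0.000943, edgeR). In WT DMXAA libraries *Shisa9* had 97.8, 162, 293 and 170, with library 3 highest.

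Among channels, *Kcnd3*, which carries A-type potassium current, rose by 1.21 ± 0.21 in KO mice, *Cacna1c*, an L-type calcium channel, by 1.17 ± 0.21, *Kcnq3*, a subunit of the M current, by 1.02 ± 0.17 and *Kcnma1*, the BK channel, by 0.90 ± 0.17. Among adhesion and guidance genes, *Slit1* rose by 1.43 ± 0.22, *Tenm3* by 0.88, *Cntnap2* by 0.84 and *Nlgn1* by 0.75.

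Of 21 tested immediate early genes, which neuronal activity induces, 12 fell and 0 rose in KO mice. The share that fell was 57.1%, against 30.8% of all genes of like length and 46.3% of all genes up to 10 kb. *Arc* had 19.7, 10.3, 35.6 and 25.6 normalised CPM in WT vehicle libraries and 13.1, 7.86, 9.52 and 7.12 in KO vehicle libraries (-1.29 ± 0.34, adjusted p = 0.00727, edgeR). The groups overlapped through 1 WT library. *Egr4* changed by -1.99 ± 0.52, *Jund* by -1.41 ± 0.33 and *Nr4a2* by -0.78 ± 0.20. Heat shock genes fell in 5 and rose in 0 of 11 (45.5%, like length 36.9%), among them *Hsp90ab1* (-1.20 ± 0.24).

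*Malat1* had 42817, 48360, 40903 and 44537 normalised CPM in WT vehicle libraries and 13920.5, 10390.2, 17983 and 16824 in KO vehicle libraries, without overlap (-1.58 ± 0.27, adjusted p = 0.000991, edgeR). In WT DMXAA libraries it had 75052, 54371, 21673 and 54788, with library 3 below every other WT library. Of 10 tested nuclear noncoding RNAs, 4 fell and 1, *Kcnq1ot1*, rose in KO mice (40% lower, like length 19.9%). Besides *Malat1*, *Gas5* (-1.35 ± 0.24), *Snhg11* (-1.13 ± 0.17) and *Meg3* (-0.62 ± 0.14) fell. Microglial *P2ry12* and *Cx3cr1* fell by 1.61 and 1.25 on the log2 scale in KO mice, where the microglial sum was 19.0 to 28.9 plain CPM against 45.7 to 76.8 in WT vehicle mice.

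Of the genes with the largest changes, *Taco1*, an activator of mitochondrial translation, had 5.23, 7.32, 12.5 and 16.3 normalised CPM in WT vehicle libraries and 94.9, 147, 64.7 and 64.1 in KO vehicle libraries (3.08 on the log2 scale). In WT DMXAA libraries it had 12, 8.63, 55.2 and 11.5, so library 3 alone was near the KO range. *Col5a2* (2.25), *Nell1* (2.18), *Zfp423* (2.04), *Adamtsl1* (2.01), *Rab3b* (1.99), *Foxo6* (1.94), *Unc5d* (1.92) and *Ston2* (1.86) followed. *Nfkb2*, a subunit of NF-kappa B, had 6.39, 4.74, 6.41 and 5.99 in WT and 0.396, 0.491, 1.59 and 0.445 in KO vehicle libraries (-2.89). *Ccr9* (-2.68) and *Prickle4* (-2.60) also fell, as did 7 noncoding or predicted genes led by *Gm49708* (-2.97).

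Of the 8 selection genes, *Pde11a* (0.74), *Stac* (0.69) and *Gm6260* (0.68) were called higher in KO mice and the others were not called. Of all tested genes, 17.2% were called higher. The nuclei were chosen for detecting these transcripts, and KO libraries were deeper per nucleus. These 3 values therefore cannot show a genotype difference in the selection genes. *Tshz2* and *Hs3st4* both rose, by 0.75 ± 0.22 and 1.19 ± 0.24. Of 222 tested MEF2C targets of the *Cgas* cohort, 158 rose and 6 fell (71.2% higher, against 51.6% of all genes of like length, median log2 change 0.61), while *Mef2c* was at -0.36 ± 0.25 (adjusted p = 0.269, edgeR). *Irf3*, the transcription factor downstream of STING, fell by 1.67 on the log2 scale.

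The same contrast in the DMXAA-treated mice called 663 genes (5.67%), 193 higher (1.65%) and 470 lower (4.02%) in KO mice. Of these, 556 were called in the same direction between the vehicle groups, which is 83.9% of the 663 and 13.6% of the 4099. Without WT DMXAA library 3, 4099 of 11972 genes were called, 1923 higher and 2176 lower. That number equals the vehicle count of the fit with all libraries. In the fit without library 3 the vehicle groups gave 5011 genes. Of the 4099 between the DMXAA groups, 2808 had the same direction among the vehicle calls of the fit with all libraries. This was 68.5% of each set, and the sets come from different fits. Leaving out WT DMXAA library 1, 2 or 4 instead gave 45, 102 and 28 genes.

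The list counts also depended on that library. Between the DMXAA groups, 3 of 34 glutamate receptor genes, 6 of 55 adhesion genes and 5 of 35 channel genes were higher in KO mice. Of 21 immediate early genes 1 was lower, as was 1 adhesion gene. The shares higher were 8.82, 10.9 and 14.3% (like length, 5.82, 7.44 and 5.33%), against 1.65% of all genes. The share of immediate early genes lower was 4.76% (like length, 7.64%), against 4.02% of all genes. Without WT DMXAA library 3 the counts were 20, 37, 22 and 10 (the last of 22 genes tested), and 1 glutamate receptor and 2 adhesion genes were lower. In that fit 16.1% of all 11972 genes were higher and 18.2% lower. The shares higher were 58.8, 67.3 and 62.9% (like length, 47.2, 57.4 and 44.9%), and 45.5% of immediate early genes were lower (like length, 29.9%). With the *Tshz2* kind alone, 3122 genes were called between the vehicle groups, and 2902 of them were also called, in the same direction, in all selected nuclei.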

How the data were processed

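Nuclei were isolated from hippocampi of 16 mice and sequenced with the 10x Chromium 3′ v3.1 kit. The authors deposited a matrix of unnormalised UMI counts for each library, made by counting reads on pre-mRNA of mm10. The submitters' processing notes name Cell Ranger 3.1.0 and Seurat 3.0, while the matrix headers name 6.1.2. No deposited cell annotation was used.

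Nuclei were selected by the rule in the report, and UMIs were summed per library. The study's limit of 4000 genes was tried as an alternative, since 1191 of the selected nuclei (60.6%) exceed it. CA1 nuclei had 3 CA1 genes, and other excitatory nuclei at most 2 of the markers. Sums were fitted in R 4.3.3 with edgeR 4.0.16 (TMM, filterByExpr, quasi-likelihood F test, 4 groups in one fit). DESeq2 1.42.0 and limma 3.58.1 were alternatives. Python 3.11.15 with NumPy 2.4.6, SciPy 1.17.1 and pandas 2.3.3 gave the exact two-sided permutation tests over 70 arrangements. The fit was tested on simulated data. Positions are of GENCODE M21 for 32158 of 32285 genes.

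Depth was 1387578 to 3164431 UMIs a library, and counting intervals cover counting error only. Replicate numbers follow accession order.

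The members and all lists were chosen with earlier results of these data known. Named genes were, per contrast, up to 10 called genes with the largest rise and 10 with the largest fall among those whose groups did not overlap, else the 5 of lowest p, up to 4 genes of each list, *Ifnar1*, *Mef2c*, the markers and the 10 most variable genes. The other genes named, among them those between the *Tshz2* and *Hs3st4* kinds and the sparse interferon genes, were chosen after their values were seen. The comparisons without WT DMXAA library 3, that of the DMXAA groups the fit of the *Tshz2* kind alone the shares by length bin and the overlaps in plain CPM were added after seeing the data. Alternatives were the filters, thresholds and tools named in the closing section. Some genes are not reported here.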

Additional observations from a re-analysis of the deposited data

Results flagged for a closer look

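Values of 1 library far from the other 3 of its group were looked for in 79 groups of 4 libraries with Dixon's test, and chance gives about 1 such group in 20. Levels are normalised CPM. WT DMXAA library 1 was high for *Stat2* (76.8), *Irf9* (27.0) and *Ifi44* (5.40). KO DMXAA library 1 was low for *Ifi27* (1.49) and *Irf9* (5.23) and high for *Ifnar2* (20.2), and its selected nuclei were the lowest share of all nuclei in its group at 1.01%. This library also had the fewest selected nuclei, 72. *Tapbp* was high in KO vehicle library 4 (4.0), and *Tyk2* was low in WT DMXAA library 3 (22.7). The median of UMIs per selected nucleus was highest of its group in WT DMXAA library 4, at 18129.5.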

How the results depend on the processing

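The calls with DMXAA in WT mice numbered 0 with limma, with nuclei of at most 4000 genes, without mixed nuclei, after thinning and with the *Tshz2* kind alone, 2 with at least 6 markers and 49 with no filter on low counts. They ranged from 0 to 4 when 1 library was left out. *Eif2ak2* kept its direction in the 21 settings that tested it, at log2 changes of 2.02 to 2.81, and *Ifi27* in 22 (1.61 to 2.42). Of these their adjusted p was under 0.05 in 13 and 8 and above it in 8 and 14, and in the settings that did not test them they did not pass the filter on low counts. The cause of each change was not tested. In KO mice DESeq2 called 1 gene and no filter 108, and leaving out a library always gave 0. The interaction gave 2 with DESeq2 and 71 with no filter, and 0 when any library was left out. The difference from CA1 nuclei gave 3 with DESeq2, 65 with no filter, 1 with at least 4 or at least 6 markers, and 0 to 4 when a library was left out.

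Between KO and WT vehicle mice, 1722 genes were called with at most 4000 genes, 2068 without mixed nuclei, 1434 after thinning (fewer genes were tested there), 663 between the DMXAA groups, and 2795 to 5011 when a library was left out. Of 20 named genes of this contrast, 8, 7, 6 and 10 passed the filter on low counts with at most 4000 genes (15 libraries had enough nuclei), without mixed nuclei, after thinning and in the *Tshz2* kind alone, all in the same direction, and 4, 6, 6 and 10 were called. With the 3 genes called with DMXAA in WT mice, none of which was called in those settings, 18 to 23 of 23 were called when a library was left out. The difference in the share of nuclei with DMXAA ranged from -0.0587 to 0.178 percentage points in WT mice and from -0.158 to 0.0651 in KO mice when a library was left out, and was 0.0227 in KO mice with at least 6 markers. *Mef2c* was not called with DMXAA in any setting. Its log2 change turned sign in WT mice with at least 6 markers (0.0625) and at most 4000 genes (0.23), was -0.80 with at least 4 markers, and ranged from -0.27 to 0.17 when a library was left out. In KO mice it turned with at least 4 (-0.0373) or 6 markers (-0.0878), and ranged from -0.0444 to 0.23 when a library was left out.

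No paired analysis was possible because the labels give no replicate numbers shared between groups. With 4 libraries a group of 72 to 158 nuclei each, most interferon genes were below the count needed for a test, and absence of a call does not show absence of change.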
